A study of Synthetic plasmid and Mus musculus with 4 samples.

Results

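The DNA side of a barcoded reporter library was compared after delivery to mouse retina by electroporation and to mouse cerebral cortex by virus. The comparison rests on the 6 libraries that counted barcodes in DNA, 3 per tissue, out of 12 libraries of RNA and DNA, and covers every construct of the plasmid pool, joined on the barcodes: 45056 with a barcode of 15 bases, 499 of 14 and 115 of 16. Retinas of CD-1 mice were electroporated outside the body at age P0 and kept in culture for 8 days, and each of the 3 biological replicates came from 5 retinas. In the other group, CD-1 mice of 4 to 6 weeks were injected in vivo, by stereotaxy into the cortex, with the library packaged in adeno-associated virus (AAV). It was harvested 4 to 5 weeks later after microdissection of GFP-positive regions, with 1 animal per replicate. Tissue, route, age, culture and sequencing lane change together between the groups and cannot be told apart. The same pool went to both tissues: sheared genomic DNA of C57BL/6J mice, captured with RNA baits and cloned beside random barcodes in 2 preparations whose colonies were harvested.

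In such a library each plasmid carries a genomic fragment that may act as an enhancer or promoter, and a transcribed barcode that identifies it. The DNA count of a barcode measures how many copies of its construct are present in the tissue sample, and is the denominator against which RNA is read. Electroporation drives naked plasmid through cell membranes of the newborn retina, where it stays mostly outside the chromosomes. An AAV vector instead is packaged into a capsid of limited capacity before it enters a cell, and persists in neurons that no longer divide. Fragments overlap 3483 target regions, in 4 classes marked B, H, L and R, which from knowledge of the study stand for brain, heart, liver and retina (the files hold no more than the letter). Fragments ran from 180 to 702 bp with a median of 464 bp.

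The barcodes below had no count in either route, few counts, or counts in both routes with a run changed in its last letter. They are given in lower case, with a run of letters in capitals. In the first set the capitals mark the run found in barcodes that gave no DNA count in any library, and the constructs are those with the most plasmid reads.
R313: CGGTTTgcaaaggga
H85: gCGGTTTaaaggatg
H684: acatgttCGGTTTgg
In the second set the last letter of that run is another base, and the construct with the most plasmid reads is shown for each. Beyond the run, these barcodes and their fragments are not those of the first set.
R266: acCGGTTAaaaaacg
B701: gtcaCGGTTCttagt
R57: CGGTTGctacagccg
In the third set the capitals mark the letters GAATTC, which the restriction enzyme EcoRI cuts.
L487: gcccGAATTCttaca
H7: GAATTCattatttgt
R391: tctcGAATTCcgggt
The last barcode ends in GGCGCGCC, the site of the enzyme AscI.
H882: cgggcggGGCGCGCC

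More constructs had no count in electroporated retina than in virus-injected cortex, although the library with the fewest counts was a cortex library. Total DNA counts were 12147398, 6501061 and 10983365 in retina replicates 1 to 3 and 3999412, 10769648 and 8087553 in cortex replicates 1 to 3. In retina 4.48%, 8.37% and 3.94% of the constructs had no count. In cortex the shares were 3.11%, 2.08% and 2.50%, so the cortex library with the fewest counts missed fewer constructs than any retina library. The mean was 5.59% ± 2.42 in retina and 2.56% ± 0.518 in cortex (SD, n = 3). The groups did not overlap, and the exact two-sided permutation test gave p = 0.10, the smallest that 3 libraries against 3 allow. The retina libraries other than retina 2 also lay above every cortex library.

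**Figure D1:**
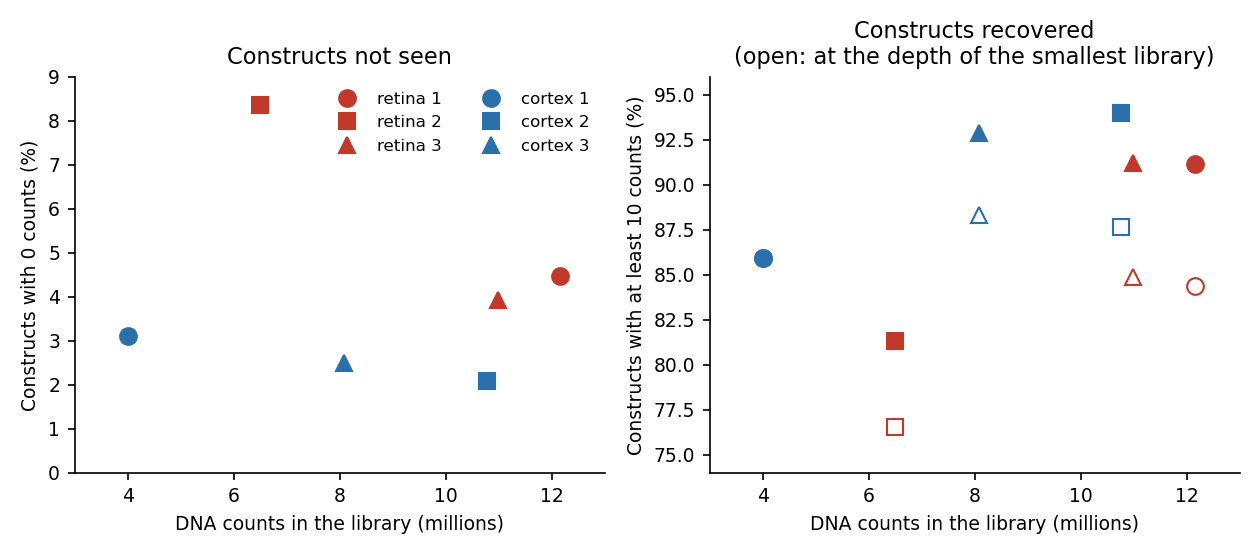
Share of all constructs with 0 counts (left, percent) and with at least 10 counts (right, percent) against the number of DNA counts of each library (axis in units of 1000000). Each point is 1 library, red for retina and blue for cortex, and open points give the share expected at the depth of cortex 1, the smallest library. All 3 cortex points lie under the retina points on the left, and the open retina points lie under the cortex points on the right.

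Recovery, defined as at least 10 counts, did not separate the routes until depth was made equal. In retina 91.2%, 81.4% and 91.2% of the constructs were recovered, and in cortex 86.0%, 94.0% and 92.9%, so the groups overlapped. Retina 2 and cortex 1, the libraries with the fewest counts of their routes, had the lowest shares. The mean difference, retina minus cortex, was -3.01 percentage points (87.9% ± 5.69 against 90.9% ± 4.35, SD, n = 3, exact two-sided permutation test, p = 0.5). At the depth of cortex 1 the expected shares were 84.4%, 76.5% and 84.9% in retina and 86.0%, 87.7% and 88.4% in cortex, which did not overlap (exact permutation test, p = 0.10). Without retina 2 the difference at full depth was 0.273 points, in the other direction.

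Most constructs without a count in cortex also had none in retina, while many without a count in retina were seen in cortex. In retina 1098 constructs were at 0 in all 3 libraries, and in cortex 655. Both lists share 586 constructs, which is 53.4% of the retina list and 89.5% of the cortex list. A further 512 constructs were at 0 in retina and seen in cortex, against 69 with the reverse pattern. These constructs were scarce where they were seen. The median summed count was 6 in cortex for those at 0 in retina, and 3 in retina for those at 0 in cortex. At least 1 library of the route had no count for 4522 constructs in retina and 1848 in cortex. In all 6 libraries 34824 constructs had at least 10 counts, 76.3% of the pool.

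Among the constructs at 0 in all retina libraries, the 5 with the most cortex counts were the following.
B586: gcctatagtggtcaa
L493: cgtccgaagcctcgc
L426: accgtggccttaagg
R467: aatccttttactctc
B268: gctacaatattagct
The B586 construct, at chr5:53533682-53534187 on the minus strand of mm9, had 7, 38 and 52 counts in cortex and was at least 41.9-fold lower in retina, taking 3 counts over the 3 libraries of a route as the floor. The R467 construct, at chr10:41306765-41307149 on the minus strand, had 11, 28 and 25 counts in cortex and was at least 27.7-fold lower in retina. For L493 (chr6:72065102-72065530) and L426 (chr7:15023643-15024169), cortex 3 gave 83 of 88 and 76 of 86 counts. B268 (chr2:52068131-52068511) had 6, 41 and 10 counts in cortex. These 5 constructs were thus seen in every cortex library, with most counts of L493 and L426 from cortex 3. They were picked for these counts, so large folds follow from the choice. The floor covers counting error only, not the spread between replicates, and edgeR, as given below, called none of the constructs it tested.

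Among the constructs at 0 in all cortex libraries, the 5 with the most retina counts were as follows.
B643: gcagcgcgccactta
R10: agccccccaaaacgc
B999: ctactaacgggccac
R763: ctcccagcataggcc
L756: tcaccttgcgtgcca
The B643 construct, at chr12:92199790-92200266 on the minus strand, had 88, 0 and 82 counts in retina. Summed over each route it was at least 43.7-fold lower in cortex, although retina 2 was at 0 as well. R10 (chr19:8958314-8958773) had 0, 75 and 2 counts in retina. B999 (chr3:55247463-55247959), R763 (chr10:93761207-93761663) and L756 (chr19:58470094-58470709) had 62, 57 and 46 counts, all of them in retina 3. None of the 5 was seen in every retina library. They too were picked for their counts, and edgeR, as given below, called none of the constructs it tested.

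Some of the 586 constructs that no library detected shared a run of letters in their barcodes. Of 4096 possible runs of 6 bases, 4045 occur in at least 60 barcodes, and 1 of them was held only by undetected barcodes. That run is CGGTTT, shown in the first set above: all 82 barcodes that hold it, 0.180% of the pool, had 0 counts in all 6 libraries. They made up 13.99% of the undetected constructs, and 504 undetected barcodes did not hold the run. Their plasmid reads ran from 10 to 3378 with a median of 33, beside a median of 35 in the pool. The run began at each of positions 1 to 10 of the barcode, and the 82 barcodes belonged to 81 targets. A count of 0 among 52488437 allows up to 0.0572 CPM (counts per 1000000 DNA counts) for the 82 together, counting error only. The reverse complement AAACCG occurs in 100 barcodes (0.219%), of which 0 were undetected. Their mean was 12.5 ± 2.37 CPM per construct in retina and 13.6 ± 1.41 in cortex (SD, n = 3). Both means were below the 21.9 CPM mean of all constructs. The runs that differ from CGGTTT in 1 letter occur in 1469 other barcodes, and 1.29% of these were undetected, as against 1.28% of all barcodes. The R57, B701 and R266 barcodes of the second set had 62.4, 67.3 and 33.9 CPM in retina 1 and 82.01, 92.8 and 18.8 CPM in cortex 1. These runs were chosen after their values were seen, by search on the strand of the deposited barcode. How barcodes were matched in the DNA reads is not given in the sources used here, and the cause was not tested.

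The run GAATTC was nearly absent from the DNA counts, with a lower mean in each retina library than in any cortex library. By median CPM it ranked 2 from the lowest of 4045 runs, and it was chosen for that rank. It occurs in 86 barcodes (0.188%), which had a median of 32.5 plasmid reads. Their mean was 0.0976, 0.173 and 0.190 CPM in retina and 0.753, 0.895 and 0.357 CPM in cortex, where the mean of all constructs is 21.9 CPM. The route means were 0.154 ± 0.0491 in retina and 0.668 ± 0.279 in cortex (SD, n = 3, exact two-sided permutation test, p = 0.10, the smallest possible). The 86 barcodes together had 102, 97 and 179 counts in retina and 259, 829 and 248 in cortex. Of the 3 barcodes shown, R391 had 1.07, 1.69 and 1.73 CPM in retina and 5.25, 5.39 and 1.61 CPM in cortex. Barcodes that differ from GAATTC in 1 letter of the run, 1602 in number, had a median of 13.6 CPM averaged over libraries, near the 13.99 CPM of the pool. All 5 barcodes with GGCGCGCC (0.0109% of the pool) were undetected, and so were 10 of the 23 with GGCGCGC. The labels state that restriction sites were added to the fragments but do not name the enzymes, and the part of cutting in these values was not tested.

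Other runs low in both routes were GCGCGC and GGCGCG. The former, in 123 barcodes (0.269%), had 3.74 ± 0.249 CPM in retina and 4.73 ± 0.415 in cortex. The latter, in 92 barcodes (0.201%), had 3.22 ± 0.0971 and 4.29 ± 1.22 CPM. For each, as for GAATTC, every retina library lay below every cortex library (exact two-sided permutation test, p = 0.10). GCGCGC and GGCGCG overlap in sequence, and 23 barcodes hold both within GGCGCGC. All barcodes with 12 G or C bases were also lower in retina (20.5 against 24.1 CPM), without overlap. The difference is thus not shown to belong to GCGCGC and GGCGCG. The 269 barcodes ending in AAAA had 3.54 ± 0.580 CPM in retina and 3.49 ± 1.17 in cortex, while the 192 starting with AAAA had 15.9 ± 0.584 and 14.1 ± 1.78 (SD, n = 3). Both groups were below the 21.9 CPM mean of all constructs in each library, and those ending in AAAA were lower than those starting with it. A barcode that differs by 1 base from another in the pool was undetected in 24 of 309 cases, 7.77%, against 1.24% of barcodes without such a neighbour. Undetected constructs were also more frequent among those with 10 to 13 plasmid reads (2.85%) than among those with 258 or more (0.637%).

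Undetected constructs were spread over 477 of the 3483 targets, and 13 targets held 3 or more. The most stood in R223 on chromosome 5, where 6 of 21 were undetected. Its 6 fragments that start between positions 44487976 and 44488094 all lie on the minus strand and had at most 4 counts summed over the 6 libraries, with 10 to 65 plasmid reads. Of the 15 fragments that start at or after 44488118, 13 had at least 60 counts, up to 1460, and 1 was undetected. This target and the position that divides its fragments were chosen after the values were seen. That position is the first start of a fragment with at least 60 counts, so fragments before it had fewer by construction. No target with at least 5 constructs was without a count in any library.

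Replicate libraries of the retina differed more from each other than those of the cortex. Across all constructs, log2(CPM + 1) correlated with r = 0.783, 0.862 and 0.802 between retina pairs and with r = 0.929, 0.910 and 0.944 between cortex pairs. Between routes the 9 pairs ran from 0.797 to 0.915. Each retina library correlated more closely with the pooled cortex libraries (0.899, 0.836 and 0.919) than with the other 2 retina libraries pooled (0.867, 0.818 and 0.879). In cortex the order was the other way, with 0.933, 0.957 and 0.948 within the route and 0.896, 0.940 and 0.920 across. The pool of the other route held 3 libraries and that of a library's own route 2, and cortex libraries varied less. These orders therefore do not compare the routes on equal terms. All these correlations are descriptions over constructs, which share the plasmid pool. Pooled retina and pooled cortex correlated with r = 0.944, and over 2258 regions with r = 0.990.

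**Figure D2:**
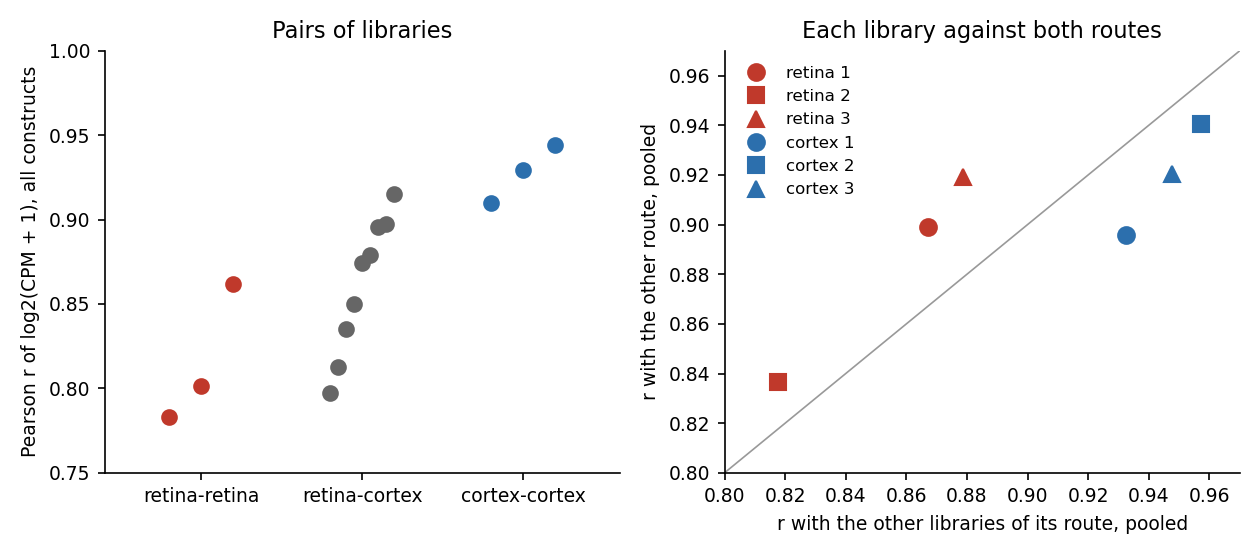
Pearson correlation of log2(CPM + 1) over all constructs between pairs of DNA libraries (left, 1 point per pair) and of each library with the pooled rest of its route against that with the pooled other route (right, line of equal values). Retina points lie above the line and cortex points below it.

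Spread beyond counting error, estimated by edgeR as a biological coefficient of variation, was 63.9% among the 3 retina libraries and 29.5% among the 3 cortex libraries per construct. Pairs of retina libraries ran from 50.4% to 70.8% and pairs of cortex libraries from 25.1% to 33.2%, so the tightest retina pair was wider than the widest cortex pair. Summed over the constructs of a target, the values were 14.9% and 10.5%, and the pairs overlapped: retina 1 and 3 gave 10.9%, the retina pairs with retina 2 16.4% and 16.8%, and the cortex pairs 8.71% to 11.5%. The share of constructs that differed more than 2-fold ran from 18.9% (retina 1 and 3) to 35.4% (retina 1 and 2) between retina pairs and from 3.58% (cortex 2 and 3) to 10.7% (cortex 1 and 3) between cortex pairs.

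The spread was largest for scarce constructs. Grouped by their level in the other route, constructs at 1 to 5 CPM varied by 104% among retina libraries and by 67.1% among cortex libraries beyond counting error. At 10 to 20 CPM the values were 54.4% and 37.3%, and at 80 CPM or more 23.9% and 23.4%. The gap between the routes was widest among scarce constructs and 0.498 points among abundant ones. Counting error at 1 to 5 CPM was 15.98% in retina and 16.3% in cortex, far below the spread in either. Of the constructs at 1 to 5 CPM in cortex, 6.04%, 21.6% and 4.30% were at 0 in retina replicates 1 to 3. Of those at 1 to 5 CPM in retina, 1.93%, 0.496% and 0.964% were at 0 in cortex replicates 1 to 3. In bulk DNA, fewer transduced cells and fewer copies per cell cannot be told apart.

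**Figure D3:**
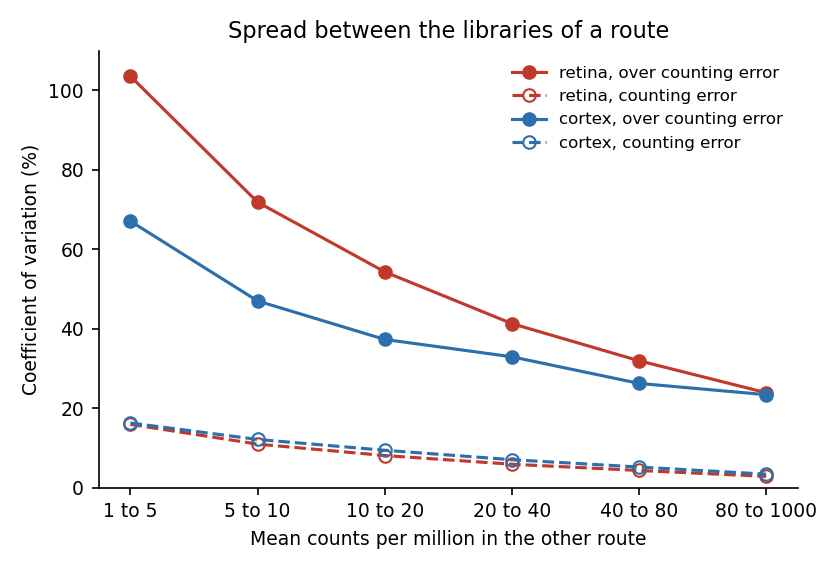
Coefficient of variation between the 3 libraries of a route (percent), beyond counting error (filled) and from counting error (open), for constructs grouped by their mean CPM in the other route. Red is retina and blue cortex. The solid lines fall from 104% and 67.1% at the left to 23.9% and 23.4% at the right.

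Retina 2 stood apart from the other libraries. It had no count for 36 constructs that reached at least 5 CPM in each of the other 5 libraries, against 0 to 4 such constructs for every other library. L589, at chr1:82231076-82231657, had 13.6 and 19.5 CPM in retina 1 and 3 and 12.9 to 15.3 CPM in cortex, and 0 in retina 2. Retina 2 also held 16 constructs at 20 CPM or more that exceeded each other library more than 10-fold. H81, at chr5:30190976-30191361, had 44.5 CPM in retina 2 and at most 1.5 CPM elsewhere. Cortex 3 held 10 such constructs, among them B591 at chr6:28750923-28751320, with 339 CPM in cortex 3 and 0.923 to 6.59 CPM elsewhere. These 3 constructs were chosen after their values were seen. Single libraries of both routes thus held constructs at levels that their replicates did not share.

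The constructs with the largest share of DNA were largely the same in both routes.
R200: atgtgttttggtgag
B739: atgtcctcttcagtc
R324: ctgaatcctgcggtt
H407: tatcttatccggcat
R200, at chr7:149317460-149317963, took 464.5, 1568 and 708 CPM in retina and 454, 862 and 154 CPM in cortex, a mean share of 0.0914% and 0.0490%. Its libraries varied widely in both routes and overlapped. B739, at chr17:8745051-8745573, was steadier at 511, 486 and 519 CPM in retina and 458, 574 and 492 CPM in cortex. R324, at chr19:7286731-7287146, came next in retina with 419.5, 538 and 400 CPM against 375, 427 and 361 CPM in cortex. H407, at chr8:125739000-125739538, came next in cortex with 790, 334 and 288 CPM, its cortex 1 value standing above the rest, and had 181, 302 and 311 CPM in retina. R200 and H407 had 26 and 17 plasmid reads, below the pool's median of 35, while R324 had 2128. No construct held more than 0.157% of the DNA counts of a library.

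Construct by construct, no difference between routes passed the test. Of 42634 constructs with at least 60 counts over the 6 libraries, edgeR's quasi-likelihood test called 0 (0%) at an adjusted p under 0.05, with a lowest adjusted p of 0.734. At an unadjusted p under 0.05 there were 2877 (6.75%), 1671 higher in retina and 1206 lower. The fitted log2 retina minus cortex lay between -1.16 and 1.08 for the central 90% of the constructs, with a median of 0.05 and a median SE of 0.50. That median was -0.02 with total library size and -0.05 with limma-voom, so the balance of directions depends on the processing. DESeq2 called 25 of 42428 (0.0589%), 7 higher in retina and 18 lower, and limma-voom 0. A count of 0 does not show that no construct differed. Summed over targets, edgeR called 0 of 2258 regions (0%), with 198 (8.77%) at an unadjusted p under 0.05. DESeq2 called 12 of 1339 (0.896%), 5 higher and 7 lower.

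Regions differed little between routes, and 99.96% of them lay within 2-fold. The central 90% had a log2 retina minus cortex between -0.31 and 0.28, with a median SE of 0.13. B951, chr9:100460609-100461699 with 52 constructs, summed to 1150, 996 and 1120 CPM in retina and 1420, 1346 and 1371 CPM in cortex. All its retina libraries were below its cortex libraries, at a log2 difference of -0.35 ± 0.07 (SE, edgeR, adjusted p = 0.152). R984, chr11:55196753-55197611 with 9 constructs, summed to 495, 587 and 492 CPM in retina and 338, 407 and 368 CPM in cortex, a log2 difference of 0.49 ± 0.11 (SE, edgeR, adjusted p = 0.186). Both were chosen after their values were seen, for low p-values in each direction, and neither passed the test.

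The make-up of the library by class was the same to within fractions of a percentage point. B constructs took 23.1% ± 0.0739 of the DNA counts in retina and 23.0% ± 0.108 in cortex. H constructs took 23.9% ± 0.0183 and 23.8% ± 0.0389, L constructs 28.0% ± 0.133 and 28.0% ± 0.0425, and R constructs 24.98% ± 0.197 and 25.1% ± 0.0877 (SD, n = 3). The H values did not overlap between routes, at a difference of 0.0690 points (exact two-sided permutation test, p = 0.10, adjusted over the 4 classes 0.40). For the other classes the groups overlapped, with exact permutation p from 0.3 to 0.9.

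Fragment length separated the routes: long fragments took a larger share of the DNA in retina than in cortex, and short ones a smaller share. Fragments of 300 to 349 bp had a mean of 27.7, 27.4 and 27.7 CPM in retina and 32.8, 32.2 and 32.2 CPM in cortex. Fragments of 450 to 499 bp had 21.9, 22.0 and 22.0 CPM in retina and 21.5, 21.5 and 21.5 CPM in cortex. Fragments of 600 bp and over had 21.6, 21.8 and 21.3 CPM in retina and 18.6, 18.9 and 18.7 CPM in cortex. In each of these classes the routes did not overlap, and the replicates of a route lay within 1 CPM of each other.

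**Figure D4:**
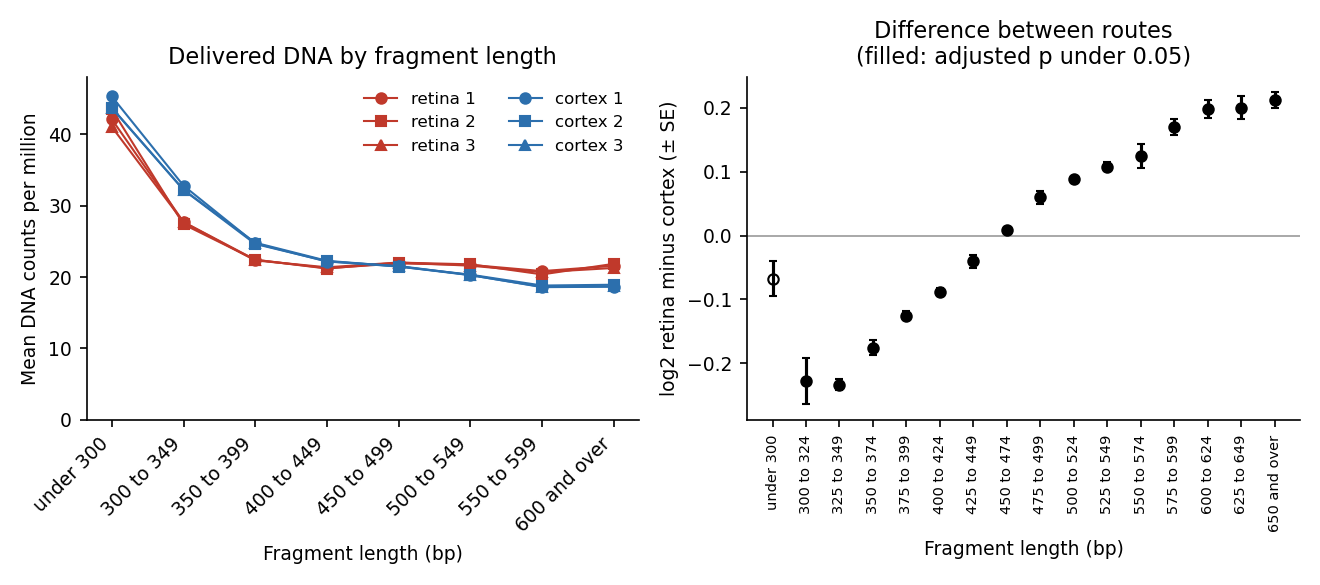
Mean CPM by fragment length in bp for each library (left, red retina, blue cortex), and log2 retina minus cortex with its SE for counts summed over steps of 25 bp (right, edgeR, filled where the adjusted p is under 0.05). The difference runs from -0.23 at 325 to 349 bp through 0.01 at 450 to 474 bp to 0.21 at 650 bp and over.

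Counts summed over steps of 25 bp were tested with edgeR, a test chosen after seeing the data. Of 16 steps 15 (93.8%) differed between routes at an adjusted p under 0.05, 6 of them lower and 9 higher in retina. The steps are shares of the same library total, so a rise in some forces a fall in others. They are therefore not separate results, and the length at which the sign changes depends on this scaling. The log2 retina minus cortex was -0.23 ± 0.01 at 325 to 349 bp (SE, 1084 constructs, edgeR adjusted p = 1.8e-05), and -0.09 ± 0.01 at 400 to 424 bp (edgeR adjusted p = 7.2e-05). It was 0.09 ± 0.004 at 500 to 524 bp (edgeR adjusted p = 1.9e-05) and 0.21 ± 0.01 at 650 bp and over (425 constructs, edgeR adjusted p = 4.7e-05). The 178 fragments under 300 bp did not pass, at -0.07 ± 0.03 (edgeR adjusted p = 0.0587). Leaving out 1 library at a time gave 13 to 16 such steps. The largest difference between routes, at a log2 of -0.23, was well under 2-fold.

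The ratio of the mean CPM of fragments of 550 bp and over to that of fragments under 400 bp put the same pattern in 1 number per library. It was 0.883, 0.876 and 0.878 in retina and 0.695, 0.710 and 0.699 in cortex, with means of 0.879 ± 0.00345 and 0.701 ± 0.00776 (SD, n = 3, exact two-sided permutation test, p = 0.10, the smallest possible). The difference between routes was more than 10 times the SD of either. It was present, without overlap, in each of 5 ranges of plasmid reads, in each of the 4 classes, on both strands and in each of 3 ranges of barcode composition. In R constructs the ratio was 0.920 ± 0.00314 in retina and 0.732 ± 0.00886 in cortex. Among constructs with 28 to 46 plasmid reads it was 2.34 ± 0.0590 and 1.79 ± 0.0656.

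Delivered DNA of both routes rose with length relative to the plasmid reads, by an amount that depends on how those reads enter. Plasmid reads averaged 451 for fragments under 300 bp and 18.2 for those of 600 bp and over, while mean DNA fell less over the same range, from 42.2 to 21.6 CPM in retina and from 44.2 to 18.8 CPM in cortex. They came from an amplicon that held the fragment together with its barcode, per the labels, whereas the DNA libraries were enriched for barcodes alone. Per 100 bp, log2(CPM + 1) minus log2 plasmid CPM rose by 0.99, 0.99 and 0.98 in retina and by 0.86, 0.87 and 0.85 in cortex. The slopes did not overlap between routes, with a mean difference of 0.13 (0.99 ± 0.003 against 0.86 ± 0.008, SD, n = 3, exact two-sided permutation test, p = 0.10, adjusted over 8 values tested per library 0.267). With log2 plasmid CPM as a covariate, which does not assume that DNA follows it in full, the slopes were 0.44, 0.46 and 0.43 in retina and 0.29, 0.30 and 0.29 in cortex, a mean difference of 0.15. DNA alone had slopes of -0.01, -0.02 and -0.02 in retina and -0.14, -0.13 and -0.15 in cortex; subtracting the same plasmid value from all libraries leaves their difference unchanged by construction. With the mean of each target removed, which compares fragments of the same locus, the slopes were 1.02, 1.02 and 1.01 in retina and 0.89, 0.90 and 0.88 in cortex.

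Delivered DNA followed the plasmid reads weakly in both routes. Log2(CPM + 1) rose by 0.37, 0.39 and 0.36 per doubling of plasmid reads in retina and by 0.38, 0.38 and 0.38 in cortex, and the groups overlapped (exact two-sided permutation test, p = 0.40). Among constructs with at least 10 counts in every library the slopes were lower and did not overlap, at 0.23 ± 0.004 in retina and 0.26 ± 0.007 in cortex (SD, n = 3, exact permutation test, p = 0.10). Constructs with 10 to 13 plasmid reads had a mean of 11.2, 11.3 and 11.2 CPM in retina and 10.3, 10.4 and 10.5 CPM in cortex. Those with 258 or more had 40.15, 39.99 and 39.98 CPM in retina and 42.4, 42.3 and 42.2 CPM in cortex. The poorest constructs thus stood slightly higher in retina and the richest slightly higher in cortex, without overlap. Plasmid reads and length went together. At 10 to 17 reads 3370 fragments had 550 bp or more and 622 under 400 bp, and from 102 reads up 41 and 3075. This difference by plasmid reads was not separated from that by length. Spearman's correlation with plasmid reads was 0.368, 0.332 and 0.371 in retina and 0.387, 0.410 and 0.427 in cortex, as a description over constructs.

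Barcode composition set 1 cortex library apart from the other 5. Barcodes with 3 G or C bases had 11.5, 11.1 and 10.3 CPM in retina, 9.42 and 10.5 CPM in cortex 2 and 3, and 5.50 CPM in cortex 1. Barcodes with 12 such bases had 19.8, 20.5 and 21.2 CPM in retina, 22.0 and 21.4 CPM in cortex 2 and 3, and 28.9 CPM in cortex 1. Cortex 1 was also the library with the fewest counts. Mean CPM did not rise throughout: with 10 G or C bases it was 24.7 in retina and 27.2 in cortex, and with 13 it was 16.2 and 20.7. Fitted as a straight line per 10 points of G and C content, log2(CPM + 1) minus log2 plasmid CPM rose by 0.05, 0.08 and 0.07 in retina and by 0.28, 0.10 and 0.08 in cortex. The groups did not overlap (exact two-sided permutation test, p = 0.10, the smallest possible), but the difference of -0.09 shrank to -0.02 without cortex 1. With edgeR on counts summed over barcodes of equal composition, 0 of 12 groups differed between routes, and 0 of them at an unadjusted p under 0.05.

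**Figure D5:**
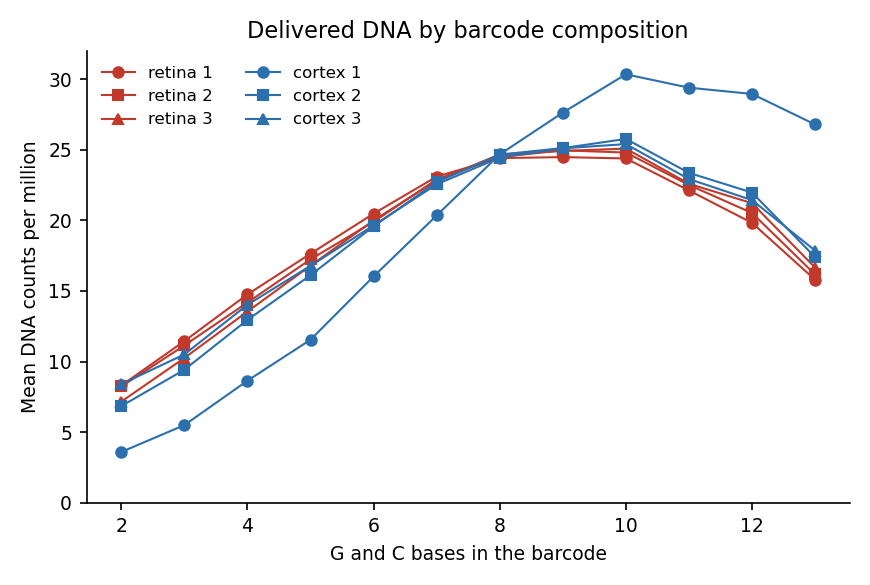
Mean CPM against the number of G and C bases in the barcode, for each library (red retina, blue cortex). The line of cortex 1 lies below the other 5 at few such bases (5.50 CPM at 3) and above them at many (28.9 CPM at 12).

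Barcode length made little difference to these means. The 499 barcodes of 14 bases had a mean of 22.0, 21.4 and 21.2 CPM in retina and 20.3, 21.1 and 21.3 CPM in cortex, next to 21.9 CPM in each library for the 45056 barcodes of 15 bases. The 115 barcodes of 16 bases had 22.5, 22.6 and 22.2 CPM in retina and 20.7, 23.4 and 22.9 CPM in cortex.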

How the data were processed

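Each deposited table holds the authors' unnormalized counts of barcodes, with 3 DNA columns per tissue, per the file headers; the 6 RNA columns were not used here. The construct table, with plasmid read counts of at least 10, fragment position and length, was deposited as 2 identical copies and used once. Start positions are given counted from 1 on mm9. Bowtie2 2.1.0, bedtools 2.22.1, FastQC, SAMtools 0.1.19 and mm9 appear, without roles, in the submitters' processing notes; how mismatches in barcodes were handled is not given in the sources used here. Barcode reads carry no molecular identifiers used here, so floors cover counting error only.

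CPM are counts scaled to 1000000 DNA counts per library. Constructs with at least 60 counts over the 6 libraries, and targets with at least 5 constructs, were tested with edgeR 4.0.16 (quasi-likelihood F test, robust, TMM scaling, Benjamini-Hochberg, threshold 0.05) in R 4.3.3, with DESeq2 1.42.0 and limma 3.58.1 as alternatives. Sums over length steps, barcode composition and classes used edgeR with total library size. Values with 1 number per library were compared by exact two-sided permutation, for which 0.10 is the smallest p. Log values used a pseudocount of 1 CPM. The construct fit was tested on simulated data, where most changed constructs were not called. Python 3.11.15, numpy 2.4.6, pandas 2.3.3 and matplotlib 3.10.9 served for the rest.

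Constructs were named by rule: the 5 with the most counts in the other route among those at 0 in all 3 libraries of a route, and the 3 with the largest mean share in each route. The rule for constructs and regions past the threshold found none. The comparison, the lists and the rules were chosen with earlier results of these data known.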

Additional observations from a re-analysis of the deposited data

Results flagged for a closer look

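Retina and cortex DNA differed in their dependence on fragment length, by the edgeR test of retina against cortex counts summed over steps of 25 bp, in which plasmid reads have no part. The log2 retina minus cortex of the called steps was -0.23 for 300 to 324 bp and -0.23 for 325 to 349 bp, -0.18 for 350 to 374 bp and -0.13 for 375 to 399 bp. It was -0.09 for 400 to 424 bp and -0.04 for 425 to 449 bp. It was 0.01 for 450 to 474 bp, 0.06 for 475 to 499 bp, 0.09 for 500 to 524 bp and 0.11 for 525 to 549 bp. The longest steps gave 0.12 for 550 to 574 bp, 0.17 for 575 to 599 bp, 0.20 for 600 to 624 bp, 0.20 for 625 to 649 bp and 0.21 for 650 bp and over.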

How the results depend on the processing

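Of 46 alternative counts of calls, 40 stayed within 1.5 times the main count or, where that was 0, stayed at 0. Only the length steps had a main count above 0. A count that stays at 0 does not show that nothing differed. Of 73 alternatives to values with 1 number per library, 66 kept their direction; their exact p cannot fall under 0.10, so they cannot cross the threshold. DESeq2 called 25 constructs and 12 regions where edgeR called 0, and limma-voom with library weights, an alternative chosen after seeing the data, called 7 regions. With the replicate number as a block edgeR called 2 constructs and 16 regions. Deviations of same-numbered libraries correlated at -0.04, 0.02 and 0.01 over single constructs, and were not computed over regions, so they do not decide on pairing. The labels give no pairing by number, and the cause of these calls was not tested. Leaving out 1 library at a time gave 0 constructs and 0 regions, 13 to 16 length steps, 0 barcode composition groups and 0 to 1 class sums, the 1 being R, without retina 2. The recovery difference ran from -5.50 to 0.273 points, the latter without retina 2. The length slope difference ran from 0.12 to 0.13 and, over 11 alternatives, from 0.08 to 0.15, without overlap in any; that without plasmid reads gives the main value by construction. The plasmid read slope difference ran from -0.01 to -0.003, with a pseudocount of 0.1 CPM it was 0.0221, and the routes moved apart (exact permutation p = 0.10) with a pseudocount of 10 CPM (-0.0162) and among constructs with at least 10 counts in every library (-0.0237). Recovery likewise moved apart at 1 count (-3.03 points), 1 CPM (-4.97) and equal depth (-5.37), and class H came to overlap as a mean log2 (0.00101, exact permutation p = 0.7). The barcode composition slope difference ran from -0.12 to -0.02, the latter without cortex 1. Class share differences ran from 0.00607 to 0.113 points for B, 0.0558 to 0.0914 for H and -0.250 to -0.0647 for R. The L difference of 0.00418 ran from -0.0454 to 0.0798 and was -0.00379 among constructs with at least 10 counts in every library. With these libraries a construct's log2 difference had a median SE of 0.50.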
